A study of Mus musculus with 9 samples.

Results

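Esrrb encodes estrogen-related receptor beta, an orphan nuclear receptor of mouse embryonic stem cells. The locus was taken as the gene on chromosome 12, 86361117 to 86521628 (mm10), with 50 kb either side, so its members were chosen by position: every peak that overlaps chr12:86311117-86571628 by at least 1 bp. The window held 140 peaks of 9 libraries, which joined into 26 of the 116362 union regions of the whole genome and of the 4742 on chromosome 12. A union region is a stretch in which peaks of the libraries overlap by at least 1 bp. The locus was proposed with results of these data known and presence of peaks is part of how it was chosen, so presence and place are described here without a test.

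ATAC-seq, which reads open chromatin from the sites where Tn5 transposase can cut and tag DNA, was done on 3 E14 lines, mouse embryonic stem cells that the labels all name as the TOT2N variant. The WT line is labelled wild type, with no construct named in its titles. The second line carried a stably integrated TetR construct (the DNA-binding tetracycline repressor). The third carried a stably integrated TetR-MYBTA construct, named for the haematopoietic transcription factor MYB. There were 3 libraries per line, and the labels do not say whether these were separate cultures, what drives the constructs or whether a line is 1 clone. The lists held 45136 to 70230 peaks from 16.4 to 23.0 M tags, with the fewest peaks in TetR-MYBTA replicate 3. Tags in peaks made up 7.84, 8.09 and 7.79% of all tags in WT and 9.78, 9.72 and 9.30% in TetR. In TetR-MYBTA they made up 7.57, 7.44 and 5.48%, below every library of the other lines.

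In embryonic stem cells ESRRB sustains the naive pluripotent state. It binds DNA beside OCT4 (from Pou5f1), SOX2 and NANOG, and uses the coactivator NCOA3. Its gene is held down by the repressor TCF7L1 and is released when Wnt signalling or inhibition of GSK3 removes that repression. ESRRB in turn activates naive genes such as Klf4, Tfcp2l1 and Tbx3.

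Esrrb has 2 starts in the RefSeq promoter table of GRCm38.p6 (the mm10 coordinates), both on the plus strand: the first at position 86361117 and the second at 86421644, 60.5 kb further in. The 2 promoters, 250 bases before to 50 after each start, are shown because all libraries but 1 had a peak over the second and none had a peak over the first. In the second, the capitals mark the 139 bases (86421543 to 86421681) that lay under a peak of all 8 libraries with a peak there. In the first, they mark the matches to the MYB core letters AACNG on the plus strand.
First start, chr12:86360867-86361166: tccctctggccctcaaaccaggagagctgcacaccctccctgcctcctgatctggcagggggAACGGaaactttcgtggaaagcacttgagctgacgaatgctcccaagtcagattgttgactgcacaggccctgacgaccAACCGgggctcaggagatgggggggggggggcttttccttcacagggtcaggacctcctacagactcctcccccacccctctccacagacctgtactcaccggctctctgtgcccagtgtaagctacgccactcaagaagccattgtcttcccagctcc
Second start, chr12:86421394-86421693: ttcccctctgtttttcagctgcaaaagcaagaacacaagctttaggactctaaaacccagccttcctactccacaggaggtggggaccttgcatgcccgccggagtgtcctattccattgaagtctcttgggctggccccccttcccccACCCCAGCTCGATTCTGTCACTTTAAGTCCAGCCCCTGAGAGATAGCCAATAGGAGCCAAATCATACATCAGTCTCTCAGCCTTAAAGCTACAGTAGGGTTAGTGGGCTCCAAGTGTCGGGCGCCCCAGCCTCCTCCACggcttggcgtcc

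Both strands were searched for 7 short motifs. The ESRRB motif TCAAGGTCA was in neither promoter and in 0.423% of the 32851 promoters of the table. Its core AAGGTCA, which lies within it, was in neither and in 4.72% of all. Neither held the GC box GGGCGG (35.7% of all), the E-box CACGTG (7.15%), the octamer ATTTGCAT (1.74%) or TATAAA (13.6%). AACNG, letters found in 80.3% of all promoters, matched 2 times before the first start, at -188 and -109, and 1 time before the second, at -243 on the minus strand and outside the bases in capitals. These matches are letters in a sequence and do not show that a factor bound there. The GC content was 60.0% at the first start and 55.3% at the second.

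TetR-MYBTA had fewer called peaks at Esrrb than either other line. The WT libraries had 17, 17 and 20 peaks in the window, the TetR libraries 16, 16 and 17, and the TetR-MYBTA libraries 12, 13 and 12. Means were 18.0 ± 1.73, 16.3 ± 0.577 and 12.3 ± 0.577 (SD, n = 3 each), a ratio of 0.718 for TetR-MYBTA over the other 6 libraries. Every TetR-MYBTA library lay below every other library. Of the 2033 protein-coding gene windows with a mean of at least 10 peaks, 16.7% had the same order, so Esrrb is 1 of many such windows.

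The lists differ in length, and as a share of the list the difference was smaller. Per 10000 peaks of the list the window held 3.00, 2.69 and 3.36 peaks in WT, 2.28, 2.43 and 2.89 in TetR, and 2.01, 2.28 and 2.66 in TetR-MYBTA. On this scale TetR-MYBTA overlapped TetR, and the ratio to the other 6 was 0.835. TetR-MYBTA also had a smaller share of its peaks on chromosome 12 as a whole, 3.86 to 3.87% against 4.01 to 4.16%, and per chromosome 12 peak the ratio at Esrrb was 0.882. When each list was shortened to its first 45136 rows, the window held 16, 15 and 16 peaks in WT and 14, 14 and 16 in TetR. It held 10, 12 and 12 in TetR-MYBTA, which again did not overlap the others, and the ratio was 0.747, close to that of the full lists. At that length 10.3% of gene windows with a mean of at least 10 peaks had the same order.

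**Figure D1:**
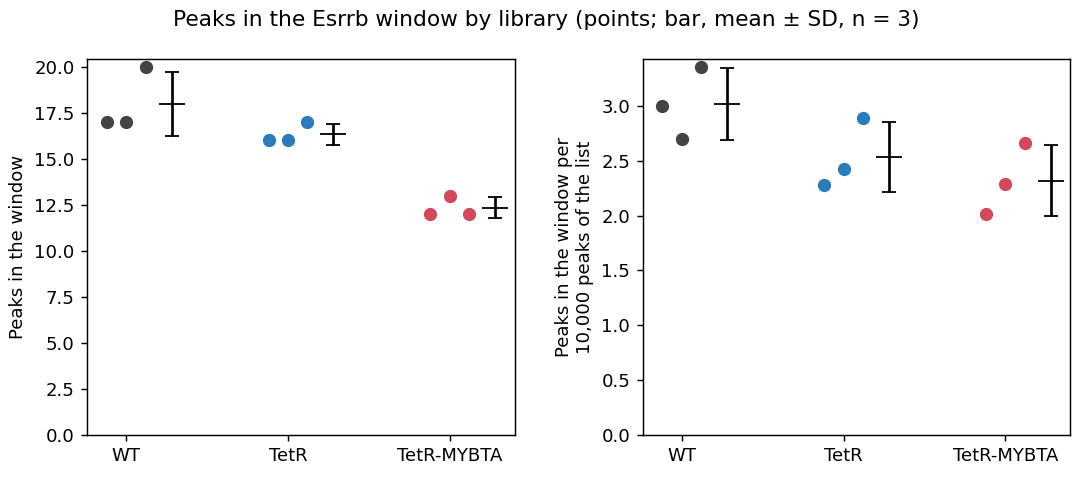
Peaks in the Esrrb window in each library (left, number of peaks; right, number per 10,000 peaks of that library's list), by line; points are libraries and bars the mean ± SD of 3. The TetR-MYBTA counts of 12 to 13 lie below all others on the left, whereas on the right the TetR-MYBTA values of 2.01 to 2.66 overlap those of TetR.

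Of the 26 regions, 21 lay inside the gene: 4 between the 2 starts, 1 at the second start and 16 after it. A further 3 lay upstream of the first start and 2 downstream of the gene end. Exons and introns were not used here, so no region is placed in one. The other genes in the window are the long noncoding RNA genes Gm32666 and Gm40483 and the pseudogene Gm52007, and Esrrb is the only protein-coding gene. The nearest region outside the window on the upstream side lay 5.20 kb beyond its edge and had a peak in 8 libraries, and the first one inside lay 17.7 kb within and had a peak in 1. On the downstream side the last region inside lay 14.4 kb within the edge.

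A peak in all 9 libraries, called constant here, was found in 7 of the 26 regions (26.9%), against 22.4% of all regions and 21.8% of those on chromosome 12. With those of 8 libraries the number was 11, or 42.3% against 29% of all regions. A peak in 1 library only was found in 6 regions (23.1%, against 26% of all), 5 of them in WT and 1 in TetR. The constant regions began between the 2 starts, 26.1 kb (86395411 to 86395632) and 18.7 kb (86402845 to 86403100) before the second. After the second start they lay at 11.8 kb (86433349 to 86433604), 49.5 kb (86470979 to 86471225), 57.4 kb (86478925 to 86479192) and 80.2 kb (86501615 to 86502065). The last was past the gene, 35.4 kb from its end (86556890 to 86557265). The longest stretch of the gene without a constant region, 37.4 kb, held 8 regions of fewer libraries. The median constant region of Esrrb had peak centres 56.5 bp apart at most between libraries, and that of all constant regions 67 bp.

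**Figure D2:**
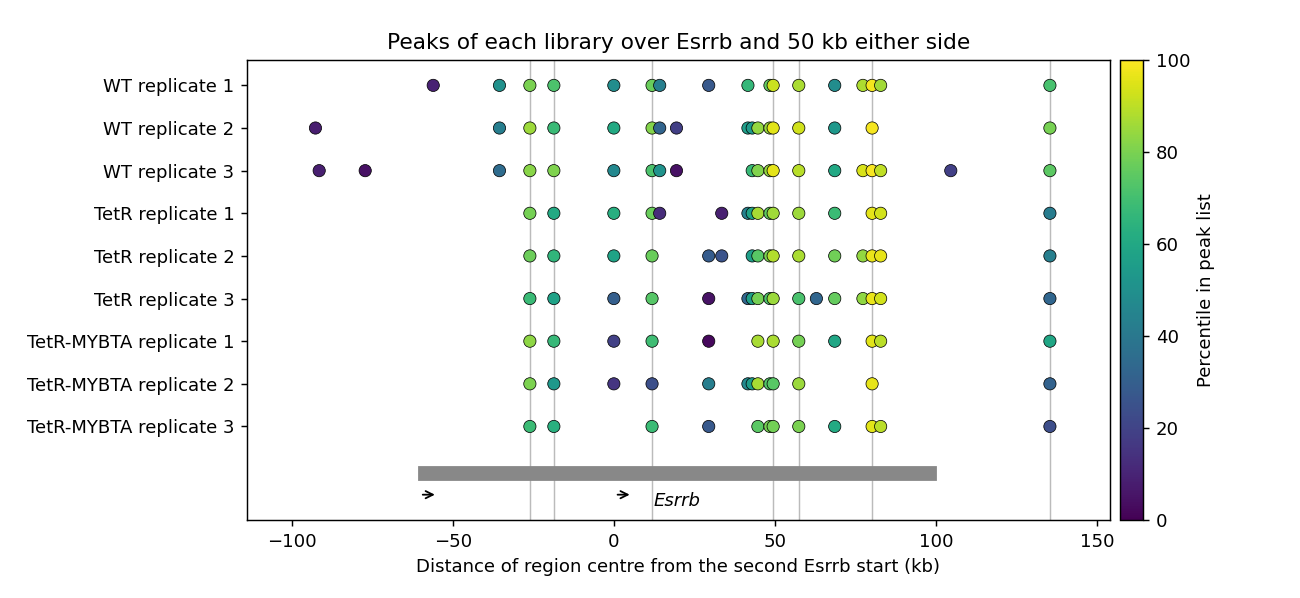
Peaks of the 9 libraries (rows) by distance of their region's centre from the second Esrrb start in kb; colour gives the place in the peak list as a percentile, grey lines mark the 7 regions with a peak in all 9 libraries, the grey bar is the gene and arrows are its 2 starts. Most peaks lie after the second start, no library has one at the first, and the TetR-MYBTA rows hold 12 to 13 peaks against 16 to 20 in the others.

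The files give no height for a peak, so place in the list was used, as a percentile of row order with 100 for the first row. On chromosome 12 row order went with HOMER's own peak numbers (Spearman's rho of 0.992 to 0.995 over the peaks of each list, as a description). The region 80.2 kb after the second start stood highest in the window in every library: 98.1, 98.8 and 98.9 in WT, 96.0, 96.8 and 96.7 in TetR, and 95.6, 96.3 and 95.7 in TetR-MYBTA. Its place among the peaks of chromosome 12 ran from 37 in WT replicate 3 to 125 in TetR replicate 1. All WT libraries lay above the other 6, and TetR and TetR-MYBTA overlapped. It was also the widest region, 451 bp, because its peak centres were spread over 252 bp. The centre lay 80.1 kb after the second start in WT replicate 2 and 80.3 kb after it in the TetR libraries.

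WT stood highest at 4 of the 7 constant regions, with all 3 WT percentiles above the other 6 libraries. Over all 26020 constant regions 9.25% had that order, and on chromosome 12 9.57%. At 49.5 kb after the second start the percentiles were 91.9, 95.6 and 96.0 in WT, 85.8, 88.6 and 85.1 in TetR, and 87.5, 74.1 and 78.7 in TetR-MYBTA. The largest gap was at the constant region past the gene end, with 71.0, 79.6 and 74.9 in WT, 41.7, 42.6 and 32.5 in TetR, and 59.1, 31.1 and 23.8 in TetR-MYBTA. WT lay apart there, and TetR and TetR-MYBTA overlapped.

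The fourth such region, 18.7 kb before the second start, had 71.8, 67.6 and 80.7 in WT, 60.5, 65.6 and 57.5 in TetR and 66.9, 53.2 and 63.5 in TetR-MYBTA. The lowest WT library (67.6) and the highest TetR-MYBTA library (66.9) were close there. When places were taken among chromosome 12 peaks only, this region's lines overlapped, and the region 57.4 kb after the second start took its place with WT above the rest. Its list percentiles were 87.3, 92.9 and 89.4 in WT, 85.5, 87.3 and 71.3 in TetR and 79.1, 85.1 and 80.1 in TetR-MYBTA. The count of 4 was thus the same on both scales, with 3 regions shared.

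TetR-MYBTA stood on average lower than the other 6 libraries at all 7 constant regions, by a mean of -9.37 percentile points and a median of -6.05. The largest differences were -22.6 at 11.8 kb after the second start and -19.1 past the gene end. Taken line by line, the TetR-MYBTA mean was below the WT mean at all 7, with a median difference of -12.1, and it was below at 60.1% of all constant regions. It was below the TetR mean at 4 of the 7 and above it at 3, with a median difference of -0.64, and it was below at 65% of all constant regions. At 2 of those 3 the means of TetR and TetR-MYBTA were equal to 3 digits, 61.2 at 18.7 kb before the second start and 81.4 at 57.4 kb after it. Against the other 6 libraries together, the median difference was -2.76 over all constant regions and -4.21 on chromosome 12. The mean was lower in TetR-MYBTA at 63.1% of all constant regions and at 71.6% of those on chromosome 12. All 3 TetR-MYBTA libraries lay below all others at 1 of the 7, against a background of 13.6% over all constant regions and 18% on chromosome 12. That region, 11.8 kb after the second start, had 77.2, 81.6 and 71.7 in WT, 77.1, 77.1 and 73.6 in TetR, and 69.1, 24.0 and 68.3 in TetR-MYBTA. TetR-MYBTA replicate 2 stood far down, and the other TetR-MYBTA libraries were just under the lowest of the rest. At the constant region 26.1 kb before the second start the lines overlapped, with 79.9, 85.5 and 82.2 in WT, 79.1, 77.7 and 67.9 in TetR, and 82.8, 80.1 and 68.3 in TetR-MYBTA.

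**Figure D3:**
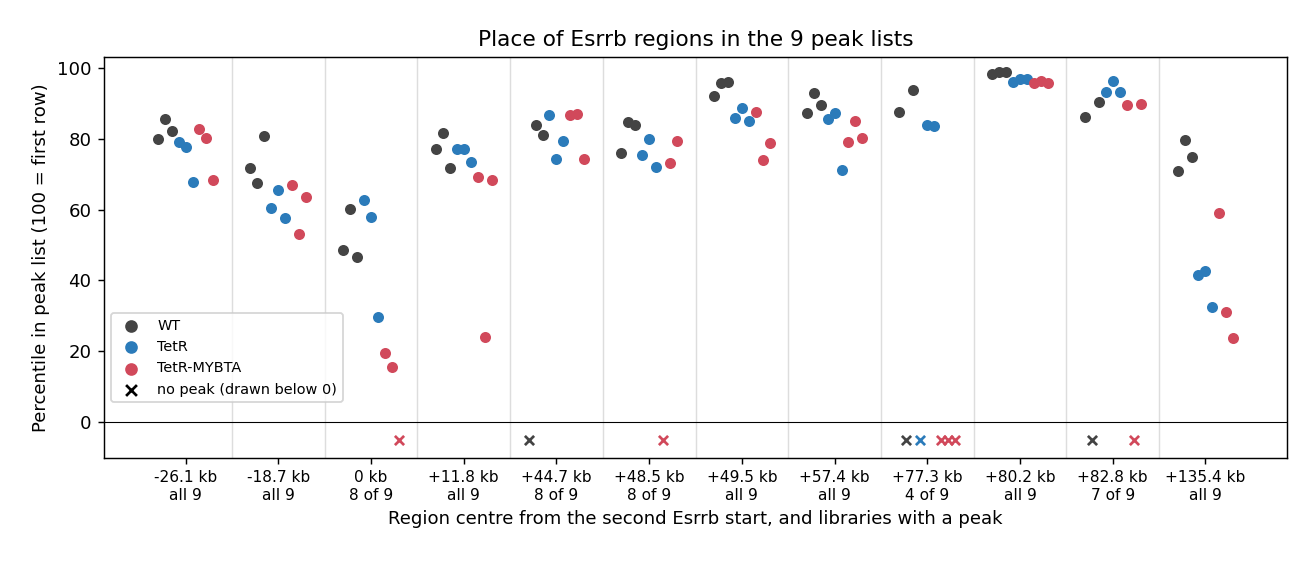
Percentile in the peak list (100 is the first row) of the 7 constant Esrrb regions, the region at the second start and the regions of 4 to 8 libraries whose median percentile was at least 75, in each of the 9 libraries; crosses below 0 mark libraries with no peak. At the second start both TetR-MYBTA peaks (19.4 and 15.6) lie below all WT and TetR peaks, at +77.3 kb no TetR-MYBTA library has a peak, and at +135.4 kb the WT libraries stand apart.

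The region at the second start (86421477 to 86421736), the only 1 of the 2 starts with a peak, had a low place in TetR-MYBTA. The percentiles were 48.5, 60.3 and 46.7 in WT, 62.6, 58.0 and 29.8 in TetR, and 19.4 and 15.6 in TetR-MYBTA replicates 1 and 2. TetR-MYBTA replicate 3 had no peak there, and its nearest lay 11.6 kb away. No TetR-MYBTA library reached the lowest of the other 6, TetR replicate 3. Of the 33750 regions with a peak in all 6 WT and TetR libraries, 20.6% had every TetR-MYBTA library lower or absent, and 25.2% on chromosome 12. In lists of equal length no TetR-MYBTA library had the promoter peak, because the shortening removed the low peaks of TetR-MYBTA replicates 1 and 2. All 6 others kept it. Of all 83726 regions of those lists 0.821% had that pattern. This base is wider than the 33750 above, so the share cannot be set against the 20.6%. The share among regions that all 6 others had was not taken at equal length.

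No region of the window had a peak in all 6 WT and TetR libraries and in no TetR-MYBTA library, which 1.16% of all regions and 1.24% of those on chromosome 12 did. The nearest such region lay beyond the window, 41.0 kb past its downstream edge (86612587 to 86612891). By the wider definition, at least 4 of the 6 WT and TetR libraries and no TetR-MYBTA library, 2 of the 26 qualified, against 5.12% of all regions and 5.53% of those on chromosome 12. Among regions with peaks in at least 4 of the 6, 11.4% had none in TetR-MYBTA. Both Esrrb regions had peaks in exactly 4 of the 6, and of all such regions 31.1% had none in TetR-MYBTA.

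The first of these, 77.3 kb after the second start (86498797 to 86499173), stood high wherever it was listed. Its percentiles were 87.6 in WT replicate 1, 93.8 in WT replicate 3, 83.9 in TetR replicate 2 and 83.5 in TetR replicate 3. WT replicate 2, TetR replicate 1 and all TetR-MYBTA libraries had no peak, the nearest of their own lying 2.44 to 2.70 kb away in the constant region at 80.2 kb. Of the 8396 regions with a median percentile at least as high, 86.4% were constant. A neighbour 82.8 kb after the second start (86504336 to 86504644) was likewise high, with percentiles of 86.0 to 96.4, and had no peak in WT replicate 2 and TetR-MYBTA replicate 2. Of regions placed at least as high as it 89.2% were constant. All 3 lie within 10 kb, the size of the surrounding stretch over which HOMER required a 4-fold excess of tags, per the file headers. Whether that filter removed peaks here was not tested.

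The second, 14.2 kb after the second start (86435683 to 86436023), was mostly a WT region. It had 42.8, 32.4 and 51.3 in WT and 12.5 in TetR replicate 1, and no peak in the other 2 TetR libraries or in TetR-MYBTA. It met the wider definition through that 1 TetR peak. Leaving out 1 library kept the cut of at least 4, and both regions had exactly 4 peaks outside TetR-MYBTA. Removing a library with a peak therefore disqualified its region by rule. That left neither of the 2 without WT replicate 1 or WT replicate 3, and 1 without WT replicate 2 or any 1 TetR library. Without TetR-MYBTA replicate 2 the number was 4.

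WT alone had a peak in all 3 libraries at 35.6 kb before the second start (86385901 to 86386260), with percentiles of 50.2, 42.5 and 35.1 and the nearest peak of the other lines 9.15 kb away. This was the only region private to a line. Of all regions 0.571% were private to WT, and 0.612% of those on chromosome 12. No region was private to TetR or to TetR-MYBTA, where 1.34% and 0.587% of all regions were. None of the 26 was seen only in TetR-MYBTA libraries, and 10.4% of all regions were. Regions seen in at least 1 library numbered 24 in WT, 19 in TetR and 15 in TetR-MYBTA, and those in all 3 libraries of a line 12, 13 and 9. The share over all regions was not taken for the counts in all 3 libraries of a line, so those are not read as particular to Esrrb. For the counts in at least 1 library it is given below, as regions with no peak of a line. The lists held a mean of 59762 peaks in WT, 64983 in TetR and 53909 in TetR-MYBTA. Of the 26 regions 11 had no TetR-MYBTA peak (34.6% of all regions), 7 no TetR peak (24.7%) and 2 no WT peak (30.4%).

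A group of 6 regions lay from 41.6 to 57.4 kb after the second start. Its outer member on the near side (86463109 to 86463420) had a peak in 5 libraries, and the next, at 42.9 kb (86464471 to 86464713), in 6, and both were seen in TetR-MYBTA replicate 2 only among the TetR-MYBTA libraries. The region at 44.7 kb (86466196 to 86466514) had a peak in all but WT replicate 1, with percentiles of 84.0 and 81.1 in WT, 86.7, 74.2 and 79.2 in TetR and 86.8, 87.0 and 74.2 in TetR-MYBTA. The 3 lines overlapped there. The region at 48.5 kb (86469984 to 86470226), only 0.752 kb from the constant one at 49.5 kb, was missing in TetR-MYBTA replicate 1 only.

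Another region ran the other way between WT and TetR. At 68.6 kb after the second start (86490098 to 86490357) the percentiles were 48.5, 53.3 and 60.0 in WT, 68.1, 78.2 and 76.3 in TetR, and 59.1 and 60.7 in TetR-MYBTA replicates 1 and 3. TetR stood above both other lines, and TetR-MYBTA replicate 2 had no peak. A low region at 29.4 kb (86450960 to 86451202) was the only one with a peak in all 3 TetR-MYBTA libraries (percentiles 2.27, 42.5 and 27.5) that fewer than 2 WT libraries had. WT replicate 1 had it at 27.3, and TetR replicates 2 and 3 at 28.6 and 4.87. The remaining regions stood low, and the highest region of a single library, 62.9 kb after the second start in TetR replicate 3, was at 32.5.

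The Esrrb window is long, 261 kb, and held more regions than 97.7% of protein-coding gene windows. It held 9.98 union regions and 2.69 constant regions per 100 kb, where the median protein-coding gene window held 6.38 and 1.56, and 76.6% of 21887 genes had fewer regions per 100 kb. The 20 listed partners, regulators, targets and relatives had medians of 9.82 regions and 1.94 constant regions per 100 kb. Esrrb stood in the middle of them in regions, with 10 genes above and 10 below, and above the median in constant regions, with 6 above and 14 below.

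Among the regulators, Nanog had 5 constant regions of 20, Pou5f1 2 of 16, Sox2 2 of 8 and Tcf7l1, the repressor of Esrrb, 5 of 37. Of the naive genes, Tfcp2l1 had 7 of 15, Klf4 2 of 8 and Tbx3 3 of 10. The relatives, Esrra and Esrrg, which encode the alpha and gamma receptors, had 3 of 10 and 3 of 30. The number of regions that all 6 WT and TetR libraries had and TetR-MYBTA lacked was 1 each at Nanog, Pou5f1, Tbx3 and Esrrg and 0 at the other 16 listed genes and at Esrrb. The share of the peak list, TetR-MYBTA over the other 6, had a median ratio of 0.941 over the 20 genes and 0.945 over all genes, next to 0.835 at Esrrb, 0.505 at Tcf7l1, 0.978 at Nanog and 1.61 at Tfcp2l1, which lies on chromosome 1. Against WT alone the ratio was 0.768 at Esrrb and 0.693 at Tcf7l1, and against TetR alone 0.915 and 0.398. The Tcf7l1 window had 14, 17 and 15 peaks in WT, 32, 28 and 27 in TetR, and 11, 11 and 7 in TetR-MYBTA, so its low pooled ratio went with high counts in TetR.

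**Figure D4:**
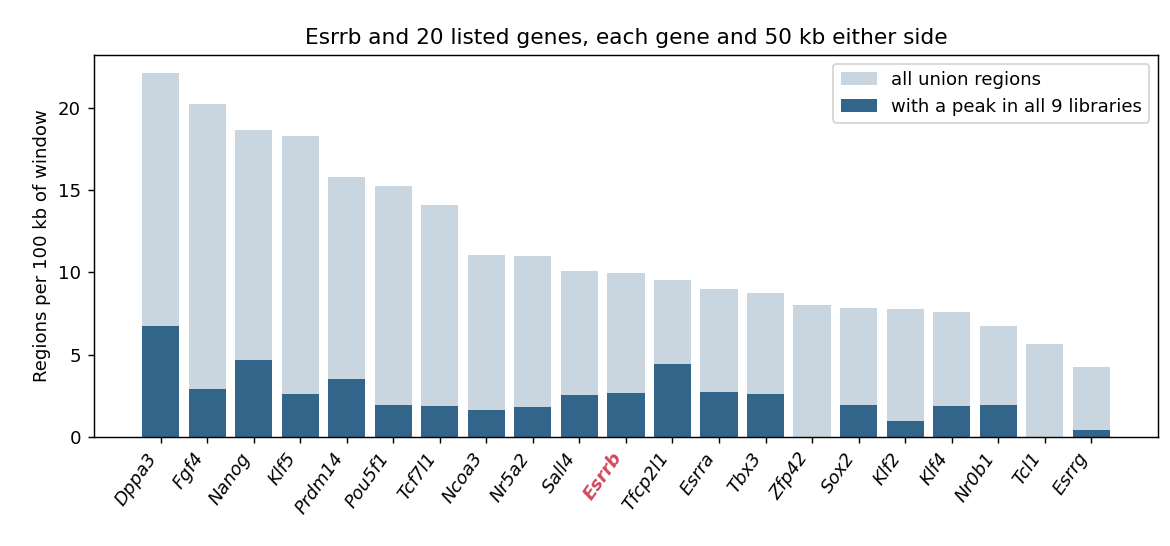
Union regions (light bars) and regions with a peak in all 9 libraries (dark bars, drawn in front from the same zero) per 100 kb of window, for Esrrb and 20 listed genes, each with 50 kb either side. Esrrb lies in the middle for all regions at 9.98 per 100 kb, and above 14 of the 20 genes for constant regions at 2.69 per 100 kb.

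The genes whose share of the peak list varied over the 9 libraries most like that of Esrrb were Eef2k (Pearson's r = 0.948), Klhdc9 (0.865) and Myo5c (0.864), out of 2032 gene windows with a mean of at least 10 peaks. These values describe 9 libraries that share 3 lines and 9 list lengths. All 3 are on chromosomes other than 12. Peaks within 1 kb of a gene end do not report expression, and they did not separate cell types here: 4 of 8 stem cell marker genes (Sox2, Klf4, Tfcp2l1 and Dppa5a) had one in all 9 libraries, Pou5f1 in 2 and Zfp42 in none. Of the 13 genes of other cell types, 3 (Eomes, Spi1 and Myb) had one in all 9, while 2 (Sox17 and Ptprc) had none.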

How the data were processed

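Nextera Tn5 transposase was applied to lysed cells, per the labels' protocols. The tools in the submitters' processing notes are HOMER 4.11, deepTools 3.5.5, Trim Galore 0.6.10, Bowtie2, Picard and FastQC, and the build is mm10. Not given in the sources used here: whether reads were shifted for the Tn5 offset or blacklisted regions removed. HOMER called peaks in each library alone, without a control. Per the file headers it used a false discovery rate of 0.001, a 4-fold local excess within 10 kb, a local Poisson p of 0.0001 and at least 11 or 12 tags per peak. Peaks of 1 library lie at least 386 to 416 bp apart. The deposited score is 1 in every row and each list has 1 width (194 to 209 bp) apart from 1 peak, so row order gave the place. Starts and ends are written from 1. No tag counts of single peaks were used, hence no counting interval.

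Peaks were joined across libraries and compared as present or absent, with no test. Genes and promoters came from RefSeq tables of GRCm38.p6, and all 20 listed symbols matched. The members and lists were chosen with earlier results of these data known. Named were Esrrb, other genes in its window, listed genes, the 3 genes most like it, and regions that are constant, lacking in TetR-MYBTA, private to a line or at a start. The other regions were named after their values were seen. The counting was tested on simulated lists. Settings varied were list length, window, joining rule, presence rule, scale of place and each library left out. Software was Python 3.11.15 with matplotlib 3.10.9, scipy 1.17.1, pandas 2.3.3 and numpy 2.4.6.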

Additional observations from a re-analysis of the deposited data

How the results depend on the processing

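No paired analysis was possible because the results come from no test: presence and place are described only. Chosen after the data were seen were the share of all peaks in a list and every alternative for the order of WT at constant regions. That order itself was not among the planned comparisons of place, which set TetR-MYBTA against the other libraries. The ratio of peaks, TetR-MYBTA over the other libraries, was 0.718. It rose to 0.882 per chromosome 12 peak and 0.835 per list peak, and was 0.747 at equal list length. It lay from 0.699 to 0.743 without any 1 library, and stayed under 1 in all 15 alternatives. Union regions (26) numbered 17 in the upper 50% of each list and 23 to 26 without 1 library. Constant regions (7) numbered 12 when presence in 2 of 3 libraries of each line sufficed (the relaxed rule, which also lets a line count as lacking a region with a peak in 1 of its 3 libraries), and 7 to 8 without 1 library.

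Regions lacking in TetR-MYBTA and present in all 6 others (0) numbered 1 with 100 kb either side, 1 at equal list length and 3 by the relaxed rule for presence and absence together, and 0 without any 1 library. By the wider definition (2) they numbered 1 in the upper 50% and 0 to 4 without 1 library. The cut of at least 4 was kept there, so leaving out a library with a peak in either region lowered the count by rule. Regions private to WT (1) numbered 2 at equal length, 0 in the upper 50%, 0 when peaks had to overlap by 50%, 3 by the relaxed rule for presence and absence together, and 1 to 2 without 1 library. Constant regions with TetR-MYBTA below all others (1) numbered 0 at equal length, 0 in the upper 50%, 0 when ranked among constant regions, and 1 to 3 without 1 library. The lacking region added with 100 kb either side lay 41.0 kb past the window's downstream edge. The one at equal length was the region at the second start. The causes of the other changes were not tested. The mean difference in place stayed below 0 in all 13 alternatives (-11.8 to -6.00), and no region was private to TetR-MYBTA in 17. TetR-MYBTA replicate 3 has the shortest list, so a missing low peak there cannot be told apart from the shorter list. All TetR-MYBTA libraries also had a lower share of tags in peaks than every library of the other lines. Whether that share bears on their counts and places at Esrrb was not tested.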
